A study of Mus musculus with 23 samples.

Results

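The contrast asked whether loss of Bcl6 changed gene expression in conventional dendritic cells by a different amount than in plasmacytoid dendritic cells (pDC). For every gene the difference between Bcl6 conditional knockout (cKO) and wild type (WT) was averaged over type 1 (cDC1) and type 2 (cDC2) conventional dendritic cells, and the same difference in pDC was subtracted from it. The rule used all 23 of 23 Mouse Gene 1.0 ST arrays, 15 of conventional dendritic cells and 8 of pDC. Each array carried total RNA of 1 dendritic cell population from digested spleen. There were 3 arrays each of WT cDC1, WT cDC2 and WT pDC, 4 of cKO cDC1 and 5 each of cKO cDC2 and cKO pDC. The cKO mice are labelled "Bcl6 cKO". The Cre driver, the deleted part of the gene, strain, age and number of animals are not given in the sources used here. Nothing in the labels says that replicates came from separate mice. The p-values therefore reflect the spread among arrays alone, which may be technical. In bulk RNA, more cells of a type and more RNA per cell cannot be told apart.

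BCL6 is a zinc finger transcriptional repressor, best known from follicular helper T cells and from B cells of the germinal centre. cDC1 are specialised in cross-presenting antigen to CD8+ T cells and cDC2 in presenting antigen to CD4+ T cells. pDC share a progenitor pathway with them and are known for secreting type I interferon.

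All values are log2 of the deposited intensity unless a fold is named, and a call means an adjusted p below 0.05 by limma with Benjamini-Hochberg adjustment over 12157 genes. Levels of different genes are not compared, because each probe set has its own brightness. The arrays fell into 3 sets by their median intensity, set A with 8 arrays (29.3 to 31.0), set B with 6 (31.6 to 34.3) and set C with 9 (38.9 to 41.2). Each set held all 6 groups. No label names a batch, so what the sets stand for is not known. Each population's own marker list was high in it, with some shared signal. In cDC1, 9 of 9 measured cDC1 markers were above the array median on every array, 8 of 10 cDC2 markers were in cDC2 and 8 of 8 pDC markers were in pDC, in both genotypes. By the same measure 6 of 9 cDC1 markers were above it in cDC2 and in pDC, 7 of 10 cDC2 markers in pDC and 6 of 8 pDC markers in cDC1 and cDC2. The log2 of the summed cDC1 marker intensity was 13.43 to 14.23 in cDC1, 10.18 to 11.49 in cDC2 and 11.56 to 13.03 in pDC. That of the pDC markers was at least 14.24 in pDC and at most 11.57 in the other two. The cDC2 sum was 12.65 to 13.44 in cDC2 and 11.85 to 12.70 in pDC, so cDC2 and pDC overlapped on it. In cDC1 it was 8.64 to 8.73 in WT and 10.24 to 10.48 in cKO, so the genotypes were apart. In cDC2 it was 12.65 to 12.92 in WT and 12.96 to 13.44 in cKO. Over the 7 cDC2 markers not called in the contrast, it was 8.17 to 8.23 in WT and 9.03 to 9.35 in cKO cDC1. Not all of these markers took part in that rise. Of the 7, 3 were above the array median on every WT cDC1 array and 2 on every cKO cDC1 array. Clec4a4, Tlr7 and Clec10a were below it on all cDC1 arrays of both genotypes. For those 7 the cDC2 genotypes overlapped, at 12.22 to 12.33 in WT and 12.10 to 12.63 in cKO. Xist, a transcript made from the inactive X chromosome, was at 10.9, 11.3 and 11.9 on WT replicate 1 of cDC1, cDC2 and pDC and at 5.07 or less on the other arrays. The 3 arrays high in Xist were the only WT arrays of set A. Genotype differences within set A therefore cannot be told apart from the difference in Xist between those 3 arrays and the cKO arrays. Without those 3 arrays the contrast called 27 genes, of which 24 were among the 40 called on all arrays. The 16 genes whose call was lost were Il1rl2, 1810065E05Rik, Cd36, Itgam, Zeb2, Il7r, Lpcat2, Pparg, Tnip3, Dock1, Gapt, Csf1r, Cldnd1, Glipr2, Evi5 and Xdh, with adjusted p from 0.0794 (Itgam) to 0.358 (Cd36) by limma and no change of sign.

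Bcl6 itself was not lower in cKO. It read 8.12, 7.12 and 7.02 in WT cDC1 against 8.74, 8.06, 8.46 and 8.29 in cKO cDC1. In cDC2 the WT arrays were at 7.83, 7.06 and 7.02 and the cKO arrays at 8.40, 8.61, 7.51, 7.51 and 7.97. In pDC the WT arrays were at 6.33, 5.40 and 5.88 and the cKO arrays at 6.03, 5.15, 5.34, 6.42 and 5.65. Over all arrays WT and cKO overlapped in all 3 cell types. Within each of sets A, B and C, every cKO array was above the WT array in cDC1 (by 0.62, 0.93 and 1.35 on average) and in cDC2 (by 0.68, 0.44 and 0.71). In pDC the set differences were -0.74, -0.06 and 0.16. The genotype difference was 0.96 in cDC1 (limma adjusted p = 0.598), 0.69 in cDC2 (0.756) and -0.15 in pDC (1), and the contrast was 0.98 ± 0.41 (SE, adjusted p = 1). In a fit that included the set the values were 0.97 (limma adjusted p = 0.0622), 0.62 (0.216), -0.22 (0.844) and, for the contrast, 1.02 (0.15). The array gives Bcl6 1 probe set summarised over the transcript, and the deleted part is not given in the sources used here, so this value does not check the labels.

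Between WT and Bcl6 cKO, 38 genes rose more in conventional dendritic cells than in pDC and 2 genes rose more in pDC. These 40 genes were 0.329% of those tested (0.313% higher, 0.0165% lower), and 386 genes had an unadjusted p under 0.05. Over all genes the median difference was 0.01 and 51.1% were above 0. Among the 38, the difference ran from 1.18 (Xdh) to 5.69 (Cd209d) with a median of 2.13. Their median genotype effect was 2.05 in conventional dendritic cells and 0.00 in pDC, where 19 effects lay above 0 and 19 below. The pDC effects of these genes ran from -0.59 (Cd209a) to 1.50 (Pilrb1), and none was called. After quantile normalization the contrast called 46 genes higher and 7 lower, and in a fit that included the set it called 106 and 26.

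The effects behind the contrast differed in how many genes were called. The conventional mean effect was called for 188 genes higher and 30 lower (1.79% in all, 1.55% higher). In cDC1 alone 99 were higher and 2 lower (0.831%), and in cDC2 alone 141 were higher and 49 lower (1.56% in all, 1.16% higher). The cDC2 split was 144 and 80 after quantile normalization and 147 and 121 with a replicate block. In pDC 4 genes rose and 0 fell (0.0329%), while 242 had an unadjusted p under 0.05. In the fit that included the set 20 rose and 6 fell in pDC. The 4 were Gm12253, 1810065E05Rik, Oasl2 and Slfn5. With single arrays left out the pDC count ran from 1 (without WT pDC replicate 2) to 7 (without WT pDC replicate 3 or cKO pDC replicate 3), and it was 2 without WT pDC replicate 1 or cKO pDC replicate 2, 4 or 5. Without WT cDC1 replicate 2 the conventional mean called 140 genes and cDC1 66, and cDC2 called 107 without WT cDC2 replicate 1 and 123 without WT cDC2 replicate 2. The contrast shares arrays with each of these effects, so they are set side by side only as a description. Of the 38 genes, 26 were called higher in both cDC1 and cDC2, 7 in cDC1 but not cDC2 and 5 in cDC2 but not cDC1. No gene was called the same way in cDC1, cDC2 and pDC.

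**Figure D1:**
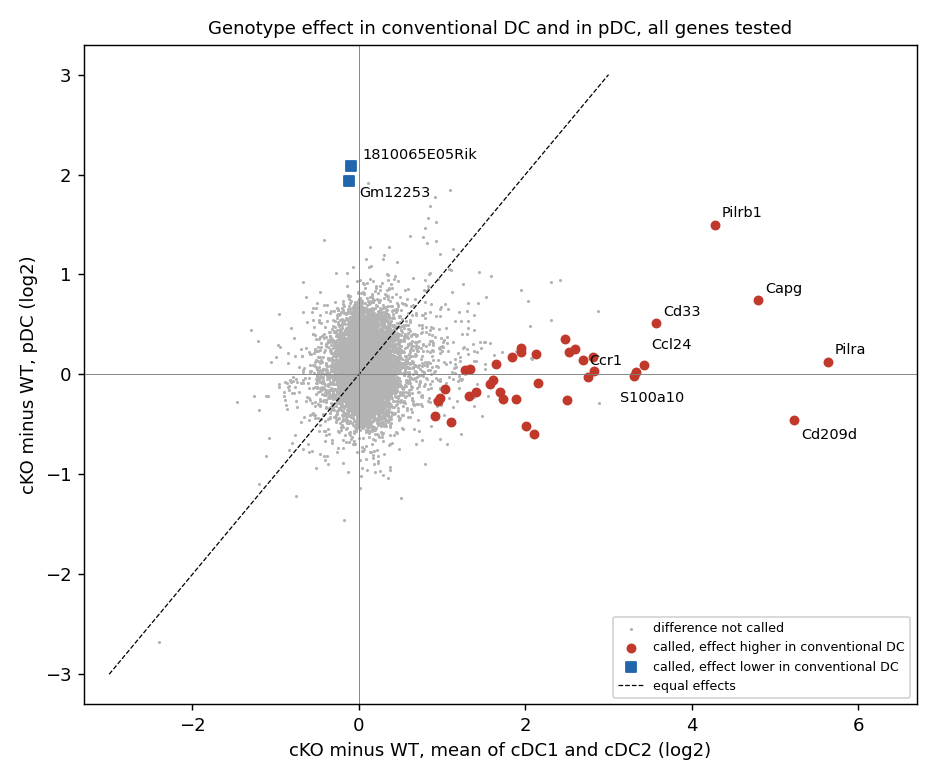
Each point is 1 of 12157 genes, with the cKO minus WT difference averaged over cDC1 and cDC2 on the x axis and that of pDC on the y axis, both log2, and the dashed line marks equal effects. The 38 genes called higher (red circles) spread to the right between pDC effects of -0.59 and 1.50, and the 2 called lower (blue squares) lie near 0 on the x axis at pDC effects of 1.94 and 2.09.

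Most genes that rose in conventional dendritic cells did not differ from pDC by this test. Of the 188, 38 were called in the contrast and 150 were not. The pDC effect was above 0 in 130 of the 188 (69.1%, against 59.3% of all genes) with a median of 0.14, beside a median conventional effect of 1.14. These 2 effects come from different arrays, but arrays of the same set mostly deviated together across groups (median correlation 0.524), so they are not independent. The 188 genes were chosen by their conventional effect, so its median follows in part from the choice. Of the 30 genes that fell in conventional dendritic cells, 0 were called in the contrast, beside 0.329% of all genes. At that share a count of 0 among 30 is uninformative. These 30 were likewise chosen by their conventional effect. Their median effect was -0.86 in conventional dendritic cells and -0.13 in pDC. In pDC 22 of the 30 were below 0, while 59.3% of all genes were above 0.

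C-type lectins that recognise sugars on microbes and cells held the largest difference. Cd209d encodes a mouse relative of the pathogen receptor DC-SIGN. It read 3.95, 4.43 and 4.83 in WT cDC1 against 9.13, 9.09, 9.96 and 9.32 in cKO cDC1. In cDC2 it read 4.81, 6.17 and 5.68 in WT against 10.70, 10.71, 10.47, 11.74 and 11.59 in cKO. In pDC it read 10.69, 10.85 and 11.86 in WT against 10.64, 10.36, 10.29, 10.84 and 11.26 in cKO. Every cKO array of both conventional types lay far above its WT arrays, while the pDC genotypes overlapped over all arrays. Within each set every cKO pDC array was below the WT one, with mean differences of -0.19, -0.57 and -0.82, and a fit that included the set gave a pDC effect of -0.49 (limma adjusted p = 0.589). The conventional effect was 5.23, a 37.6-fold rise, the pDC effect was -0.46 (95% interval -1.20 to 0.28), and the contrast was 5.69 ± 0.44 (SE, limma adjusted p = 8.3e-08). Set A gave 5.73, set B 5.04 and set C 6.22.

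Cd209a, which encodes the lectin CD209a found on mouse pDC and on part of the cDC2, also rose in cDC1 and rose less in cDC2. In cDC1 it went from 5.76, 4.89 and 6.07 in WT to 8.63, 8.74, 8.84 and 8.89 in cKO. In cDC2 WT arrays were at 9.95, 10.56 and 10.96 and cKO arrays at 11.23, 11.49, 11.38, 11.68 and 11.68. In pDC WT arrays were at 10.47, 10.98 and 11.08 and cKO arrays at 10.22, 10.04, 9.93, 10.61 and 10.48. The conventional groups did not overlap, and the pDC groups did. Within each set cKO pDC was below WT, with mean differences of -0.34, -1.05 and -0.54, and a fit that included the set gave a pDC effect of -0.62 (limma adjusted p = 0.3). The contrast was 2.69 ± 0.31 (SE, limma adjusted p = 1.5e-05), from a rise of 3.20 in cDC1, a 2.0-fold rise in cDC2 (adjusted p = 0.0429) and -0.59 in pDC. Cd209a lies on chromosome 8 with 3 genes between it and Cd209d, and probe sets of such related genes may share signal.

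Clec4n encodes Dectin-2, a receptor for fungal mannans. It was at 4.36, 4.61 and 4.28 in WT cDC1 and at 5.23, 6.32, 7.0 and 5.88 in cKO cDC1. In cDC2 it was at 5.58, 6.58 and 7.10 in WT and at 9.20, 9.80, 10.34, 10.63 and 10.67 in cKO. All 8 pDC arrays were below the array median for this gene, so its pDC effect of 0.15 is a difference between dim signals. The contrast was 2.55 ± 0.45 (SE, limma adjusted p = 0.00543), with a 3.23-fold rise in cDC1 and a 13.04-fold rise in cDC2. The 3 WT cDC1 arrays were below the array median too, so the fold in cDC1 is of uncertain size. The same holds in WT cDC1 for Cd209d, Pilra, Capg, Ccl24, Ccr1, Cd33, Il1rl2, Nrp2, P2ry13, Zeb2, Tnip3, Dock1 and Slc7a11.

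Paired and inhibitory receptors formed the next group. Pilra encodes the inhibitory and Pilrb1 the activating member of the paired immunoglobulin-like type 2 receptors. Pilra read 3.76, 4.83 and 3.69 in WT cDC1 and 10.39, 10.18, 10.55 and 10.43 in cKO cDC1. In cDC2 it read 4.84, 6.02 and 5.68 in WT and 10.17, 10.60, 10.38, 10.56 and 10.73 in cKO. In pDC it read 5.95, 7.22 and 5.79 in WT and 5.72, 6.26, 6.03, 6.33 and 7.90 in cKO. The conventional genotypes were far apart and the pDC genotypes overlapped, with cKO pDC replicate 5 above the rest. The contrast was 5.51 ± 0.49 (SE, limma adjusted p = 3.8e-07), from rises of 78.3-fold in cDC1 and 31.5-fold in cDC2 and a pDC effect of 0.13 (95% interval -0.69 to 0.95). Within sets A, B and C the value was 6.04, 6.05 and 4.56.

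Pilrb1 rose in conventional dendritic cells and was also higher on every cKO array in pDC. It was at 5.58, 3.98 and 4.88 in WT cDC1 and at 9.88, 9.52, 9.83 and 9.84 in cKO cDC1. In cDC2 WT arrays were at 5.96, 5.70 and 7.01 and cKO arrays at 9.87, 9.99, 9.67, 9.60 and 9.98. In pDC WT arrays were at 5.58, 4.72 and 4.43 and cKO arrays at 6.88, 6.62, 6.08, 6.17 and 6.30. The genotypes did not overlap in any of the 3 cell types, but the gap was smallest in pDC. The pDC effect was 1.50 (95% interval 0.84 to 2.16) and was not called (limma adjusted p = 0.167), and the contrast was 2.78 ± 0.40 (SE, adjusted p = 3.3e-04).

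Pilra and Pilrb1 are neighbours on chromosome 5 with 0 genes between them, and the 250 bases before their starts are shown because the pair rose together. The windows come from RefSeq (GRCm38.p6), chr5:137836279-137836528 and chr5:137858050-137858299, both on the minus strand, written from 5′ to 3′. Capitals mark a match to an interferon-response-type motif, GAAA repeated after any NN (either strand), at position -178 from the start of Pilra and -232 from that of Pilrb1.
Pilra: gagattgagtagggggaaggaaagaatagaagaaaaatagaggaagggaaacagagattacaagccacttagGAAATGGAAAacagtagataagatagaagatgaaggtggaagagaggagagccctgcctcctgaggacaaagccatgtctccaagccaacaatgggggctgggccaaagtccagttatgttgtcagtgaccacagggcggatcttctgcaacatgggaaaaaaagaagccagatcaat
Pilrb1: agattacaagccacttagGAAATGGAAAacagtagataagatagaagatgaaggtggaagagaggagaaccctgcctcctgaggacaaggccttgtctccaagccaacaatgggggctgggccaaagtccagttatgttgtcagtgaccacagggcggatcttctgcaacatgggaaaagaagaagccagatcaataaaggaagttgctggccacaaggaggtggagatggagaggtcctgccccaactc
Shifted by 54 bases, the windows were identical at 192 of 196 overlapping bases (98.0%), so the motif is 1 shared stretch and not a separate match in each gene. Probe sets of such similar genes may also share signal.

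Windows were found for 29 of the 40 called genes. Of these 29, 3 held the interferon-response-type motif (Pilra, Pilrb1 and Cybb), against 3.46% of 27025 genes with a window. The STAT-type motif TTCNNNGAA was in the windows of 3 (Il7r, Slc7a11 and Zeb2), against 8.13% of all genes. The BCL6-type motif TTCCTAGAA was in 0 of 29 and in 0.396% of all genes. TTCCTAGAA is itself 1 form of TTCNNNGAA. A match is a description of these letters in this window and not a binding site.

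Cd33 encodes a Siglec, a receptor for sialic acids. It was at 4.77, 4.61 and 4.04 in WT cDC1 and at 9.41, 9.04, 9.20 and 8.96 in cKO cDC1. In cDC2 it was at 6.86, 7.52 and 7.33 in WT and at 9.79, 10.17, 9.21, 9.69 and 9.64 in cKO. In pDC it was at 9.39, 8.79 and 8.90 in WT and at 9.63, 9.99, 8.82, 9.71 and 9.54 in cKO. cKO conventional dendritic cells reached the range of pDC, where the genotypes overlapped over all arrays. Within each set cKO pDC was above WT, by 0.43, 0.03 and 0.73, and a fit that included the set gave a pDC effect of 0.48 (limma adjusted p = 0.573). The contrast was 3.06 ± 0.32 (SE, limma adjusted p = 3.9e-06), with rises of 4.68 in cDC1 and 2.46 in cDC2 against 0.52 in pDC.

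Klrb1b encodes an inhibitory lectin-like receptor first known from natural killer cells. Its WT cDC1 arrays were at 5.96, 5.70 and 5.95 and its cKO cDC1 arrays at 9.19, 9.25, 9.56 and 9.34. Its WT cDC2 arrays were at 6.30, 6.98 and 6.65 and its cKO cDC2 arrays at 8.83, 8.78, 8.81, 8.79 and 8.84. The pDC arrays of both genotypes lay between 4.33 and 5.46 and overlapped. The contrast was 2.64 ± 0.28 (SE, limma adjusted p = 6.2e-06). Of the 24 tested PILR, Siglec and other regulatory receptors, these 4 were called higher, beside 0.313% of all genes tested, and 0 lower. The median difference of the list was 0.17, beside 0.01 over all genes. Pilrb2 stayed just outside the threshold with a difference of 1.77 ± 0.39 (adjusted p = 0.0511).

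**Figure D2:**
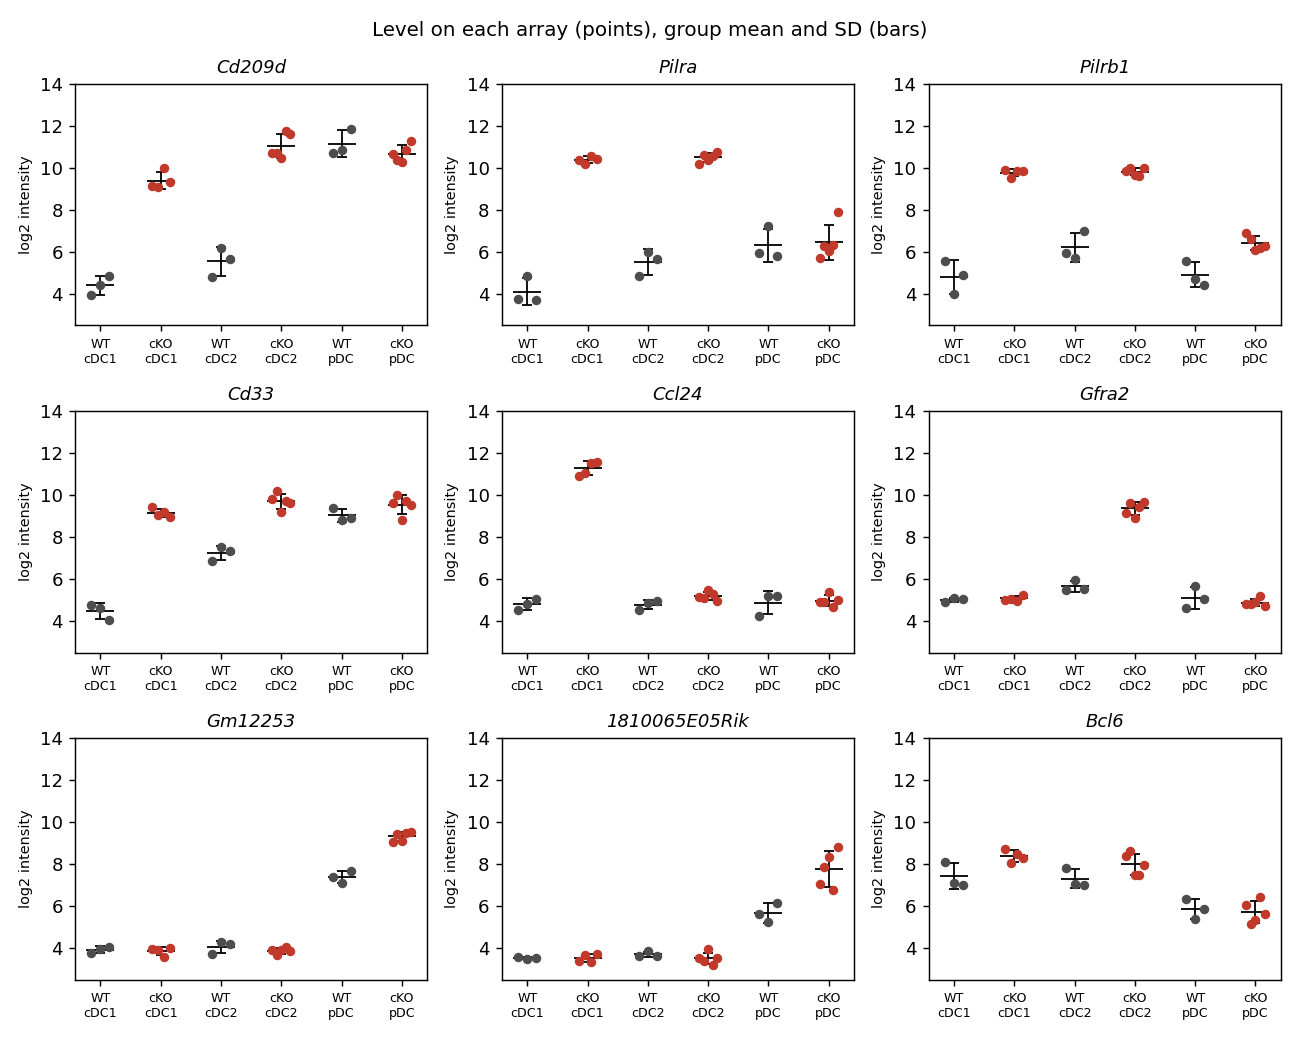
Points are the log2 intensity of 9 genes on each array (grey WT, red cKO), and the bars give the group mean and SD. Cd209d, Pilra, Pilrb1 and Cd33 are high in both cKO conventional types, Ccl24 in cKO cDC1 and Gfra2 in cKO cDC2, while Gm12253 and 1810065E05Rik are higher in cKO pDC.

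Capg, which encodes a protein that caps the growing ends of actin filaments, rose in both conventional types. It read 4.71, 4.71 and 5.29 in WT cDC1 and 9.72, 9.44, 10.52 and 10.09 in cKO cDC1. In cDC2 it read 6.14, 5.97 and 6.17 in WT and 10.17, 10.47, 10.23, 11.12 and 11.23 in cKO. In pDC it read 8.84, 7.57 and 9.78 in WT and 9.03, 9.37, 9.44, 9.35 and 10.17 in cKO. The conventional genotypes were separate and the pDC genotypes overlapped, with WT pDC spread widely. The contrast was 4.05 ± 0.46 (SE, limma adjusted p = 1.1e-05), and within sets A, B and C the value was 4.24, 2.63 and 5.03. The pDC effect was 0.74 with a 95% interval of -0.03 to 1.51.

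S100a10 encodes the partner protein of annexin A2. Its contrast was 3.32 ± 0.56 (SE, limma adjusted p = 0.00369), from 7.79, 8.16 and 9.10 in WT cDC1 to 12.09, 12.45, 12.99 and 12.84 in cKO cDC1. In cDC2 the rise was smaller, from 9.08, 10.10 and 10.56 to 11.55, 11.89, 12.19, 12.93 and 12.82. The pDC arrays ran from 9.55 to 11.51 and the genotypes overlapped. Dock1, an activator of the GTPase Rac, differed by 1.93 ± 0.36 (SE, adjusted p = 0.00935), and its 8 pDC arrays were all below the array median. Without WT pDC replicate 3 the Dock1 difference was 1.81 and its call was lost (adjusted p = 0.0535). Of 23 tested S100, annexin and capping genes, 2 were called higher (Capg and S100a10), beside 0.313% of all genes, and the median difference was 0.45.

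Ccl24 rose in cDC1, and the chemokine receptor gene Ccr1 rose in both conventional types. Ccl24 encodes eotaxin-2, a ligand of CCR3 that attracts eosinophils. It was at 4.53, 4.83 and 5.07 in WT cDC1 and at 10.89, 11.06, 11.52 and 11.56 in cKO cDC1. In cDC2 it was at 4.53, 4.88 and 4.95 in WT and at 5.15, 5.11, 5.46, 5.29 and 4.97 in cKO. All pDC arrays lay between 4.24 and 5.38. The contrast was 3.34 ± 0.29 (SE, limma adjusted p = 3.8e-07), with an 87.3-fold rise in cDC1 and a cDC2 effect of 0.41 that was not called. With cDC2 alone minus pDC it was 0.32 (adjusted p = 1), and with 1 common effect for both conventional types it was no longer called.

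Ccr1 is a receptor for inflammatory CC chemokines. It went from 3.52, 3.69 and 3.71 to 6.56, 7.68, 6.79 and 6.48 in cDC1. In cDC2 it went from 3.57, 5.09 and 4.12 to 7.53, 7.83, 7.86, 7.61 and 7.62. In pDC the WT arrays were at 3.92, 5.63 and 4.77 and the cKO arrays at 4.91, 4.91, 4.78, 4.68 and 4.70. The cKO pDC arrays fell inside the WT range. The contrast was 3.31 ± 0.40 (SE, limma adjusted p = 2.6e-05). Among 18 chemokines and 19 chemokine and positioning receptors, Ccl24 and Ccr1 were the 2 called genes (0.329% of all genes were called), and the list medians were 0.15 and 0.20. Ccr2 was just outside the threshold at 1.52 ± 0.34 (adjusted p = 0.0511).

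Receptors for nucleotides, leukotrienes and cytokines followed. P2ry13, a receptor for ADP, rose from between 4.23 and 4.80 in WT conventional dendritic cells to between 6.30 and 7.30 in cKO, while pDC of both genotypes stayed between 8.57 and 9.76. Its contrast was 2.30 ± 0.32 (SE, limma adjusted p = 2.9e-04). Cysltr1, a receptor for cysteinyl leukotrienes, differed by 2.35 ± 0.39 (adjusted p = 0.00336). Il1rl2, the IL-36 receptor, was at 3.49 to 4.57 in WT conventional dendritic cells and at 5.75 to 8.34 in cKO. Its pDC arrays read 6.84, 5.89 and 6.65 in WT and 6.53, 6.73, 5.65, 6.73 and 6.52 in cKO, and the genotypes overlapped. The contrast of Il1rl2 was 2.77 ± 0.50 (adjusted p = 0.00658). Nrp2, a co-receptor for semaphorins and VEGF, was at 4.13 to 4.77 on all pDC arrays, each below the array median. The contrast of Nrp2 was 2.75 ± 0.25 (limma adjusted p = 3.8e-07).

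Gfra2, the co-receptor for neurturin, rose in cDC2, and its cDC1 effect was not called. It read 4.90, 5.08 and 5.04 in WT cDC1 and 5.02, 5.06, 4.97 and 5.24 in cKO cDC1. In cDC2 it read 5.49, 5.94 and 5.50 in WT and 9.13, 9.63, 8.91, 9.41 and 9.68 in cKO. In pDC it read 4.63, 5.67 and 5.05 in WT and 4.80, 4.79, 4.89, 5.17 and 4.73 in cKO. The genotypes were separate in cDC2 and overlapped in cDC1 and pDC. Its contrast was 2.13 ± 0.27 (SE, limma adjusted p = 4.9e-05), from a 13.1-fold rise in cDC2. With cDC1 alone minus pDC it was 0.31 (adjusted p = 1), and with 1 common conventional effect the call was lost.

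Il7r encodes the alpha chain of the interleukin-7 receptor. It was at 6.45, 7.25 and 7.12 in WT cDC2 and at 8.85, 8.82, 8.94, 8.79 and 9.32 in cKO cDC2. In cDC1 it was at 5.72, 5.57 and 5.74 in WT and at 6.01, 6.30, 6.79 and 6.20 in cKO. In pDC it was at 9.96, 9.47 and 10.10 in WT and at 9.40, 9.52, 9.31, 10.11 and 9.80 in cKO. 4 of the 5 cKO cDC2 arrays lay below the pDC range, and the highest, at 9.32, lay just inside it. The contrast was 1.54 ± 0.28 (SE, limma adjusted p = 0.00904), and without WT pDC replicate 3 it was 1.41 and not called (adjusted p = 0.0564). Il7r is also a T cell marker. The log2 of the summed intensity of 4 other T cell markers (Cd3e, Cd3g, Cd5 and Lat) was 8.67 to 9.33 in WT cDC2 and 9.02 to 9.70 in cKO cDC2, and all 4 were above the array median on every cDC2 array. In cDC1 the sum was 7.79 to 8.99 in WT and 8.28 to 9.17 in cKO, and in pDC 8.21 to 9.32 and 8.35 to 9.20. The part of T cell RNA in the Il7r result was not tested.

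Csf1r, the receptor for macrophage colony-stimulating factor, differed by 1.58 ± 0.31 (SE, limma adjusted p = 0.0142), with rises of 2.52-fold in cDC1 and 2.79-fold in cDC2. Its call was lost without WT pDC replicate 1 (1.38, adjusted p = 0.0889) and without WT pDC replicate 2 (1.40, adjusted p = 0.0973). Itgam, the integrin chain CD11b of myeloid cells, differed by 1.88 ± 0.33 (adjusted p = 0.00635). It rose from 5.45, 5.57 and 5.37 to 7.70, 7.52, 7.69 and 7.51 in cDC1 and from 8.70, 8.31 and 8.23 to 9.81, 10.50, 9.09, 9.36 and 9.59 in cDC2. Its pDC arrays lay between 4.56 and 5.84. The summed level of 5 monocyte and neutrophil markers overlapped between genotypes, at 9.05 to 10.11 in WT and 9.18 to 11.13 in cKO cDC1, at 8.38 to 11.03 and 9.47 to 10.88 in cDC2, and at 7.63 to 9.95 and 7.22 to 10.84 in pDC. Their part in the Itgam result was not tested. Of 26 tested cytokine and growth factor receptors, 4 were called higher (Il1rl2, Gfra2, Csf1r and Il7r), beside 0.313% of all genes, 0 were called lower and the list median was -0.09.

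Socs2, a feedback inhibitor of cytokine signalling, rose from between 6.53 and 7.43 on WT conventional arrays to between 8.16 and 9.32 on cKO arrays. In pDC it was at 4.72, 4.80 and 6.17 in WT and at 4.47, 4.88, 5.10, 5.11 and 5.37 in cKO. The conventional genotypes did not overlap and the pDC genotypes did. The contrast was 1.97 ± 0.36 (SE, limma adjusted p = 0.0089). Socs2 has 2 kept probe sets, and with their mean the difference was 1.18 and not called.

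Zeb2, a zinc finger factor needed for pDC and cDC2, went from 4.66, 4.51 and 4.53 to 6.29, 6.31, 6.77 and 6.56 in cDC1. In cDC2 it went from 7.92, 8.14 and 8.23 to 8.70, 9.13, 8.53, 8.87 and 8.99, and in pDC it ranged from 8.66 to 9.55 with the genotypes overlapping. cKO cDC1 remained below WT cDC2. Its contrast was 1.28 ± 0.26 (SE, limma adjusted p = 0.0198) and lost the call without WT pDC replicate 1 (1.12, adjusted p = 0.109) and without WT pDC replicate 3 (1.26, adjusted p = 0.0834). Pparg, the lipid-sensing nuclear receptor, differed by 1.21 ± 0.27 (adjusted p = 0.0461), and 16 of the 23 arrays each cost it the call when left out (adjusted p up to 0.195). Tnip3, an inhibitor of NF-kB signalling, differed by 2.25 ± 0.43 (adjusted p = 0.0129), and without WT pDC replicate 3 by 1.93 (adjusted p = 0.11). Both genes were below the array median on all 8 pDC arrays.

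Enzymes and transporters completed the conventional-led group. Upb1, the last enzyme of pyrimidine breakdown, was at 5.20, 5.26 and 4.97 in WT cDC1 and at 8.30, 8.11, 8.28 and 8.22 in cKO cDC1. In cDC2 it was at 4.85, 4.81 and 4.99 in WT and at 7.16, 7.35, 7.37, 7.72 and 7.62 in cKO. In pDC it was at 8.19, 7.79 and 8.51 in WT and at 8.27, 8.53, 7.89, 7.74 and 8.57 in cKO. cKO cDC1 reached the range of pDC, where the genotypes overlapped. The contrast was 2.79 ± 0.25 (SE, limma adjusted p = 4.4e-07), and within sets A, B and C the value was 2.54, 2.61 and 3.33.

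Cybb encodes gp91phox, the superoxide-making subunit of the NADPH oxidase of phagocytes. It was at 6.17, 4.42 and 4.99 in WT cDC1 and at 9.77, 9.24, 9.45 and 9.13 in cKO cDC1. In cDC2 it was at 9.66, 9.43 and 9.56 in WT and at 10.53, 10.91, 9.94, 10.02 and 10.14 in cKO. In pDC it was at 11.36, 10.79 and 10.69 in WT and at 11.57, 11.88, 10.60, 11.60 and 10.87 in cKO. The rise in cDC1 was 18.4-fold (limma adjusted p = 2.6e-08), and the 0.76 in cDC2 was not called (adjusted p = 0.628). The contrast was 2.12 ± 0.41 (SE, adjusted p = 0.0129), and without WT pDC replicate 1 it was 1.91 (adjusted p = 0.0751). With cDC2 alone minus pDC it was 0.40 and not called. The call was also lost with quantile normalization, with array weights and with 1 common effect for both conventional types. The 7 tested oxidase genes had a list median of -0.16, and 2 of them were above 0. Of the 7, Cybb was the 1 called, beside 0.313% of all genes called higher. Its window, chrX:9469325-9469574 (GRCm38.p6, minus strand, RefSeq), is shown because it held 3 matches to the interferon-response-type motif, in capitals, read on either strand.
Cybb: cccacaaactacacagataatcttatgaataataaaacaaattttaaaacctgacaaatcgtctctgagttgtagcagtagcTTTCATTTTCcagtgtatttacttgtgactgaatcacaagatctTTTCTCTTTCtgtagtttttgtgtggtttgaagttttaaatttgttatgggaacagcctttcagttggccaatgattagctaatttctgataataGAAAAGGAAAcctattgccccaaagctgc

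B4galt6, a lactosylceramide synthase, rose 9.59-fold in cDC1, and its 1.67-fold difference in cDC2 was not called (limma adjusted p = 0.146). On the pDC arrays it was at 4.74, 5.15 and 5.00 in WT and at 4.45, 4.19, 4.30, 4.16 and 5.14 in cKO. The contrast was 2.52 ± 0.28 (SE, adjusted p = 9.1e-06). Lpcat2, which makes phosphatidylcholine and platelet-activating factor, differed by 1.68 ± 0.32 (adjusted p = 0.0098). Slc7a11, the cystine and glutamate exchanger, differed by 1.67 ± 0.27 (adjusted p = 0.0022) with all pDC arrays below the array median. Ext1, a heparan sulfate polymerase, differed by 1.34 ± 0.25 (adjusted p = 0.0089). Of 19 lipid metabolism genes 2 were called higher (Lpcat2 and Pparg), beside 0.313% of all genes, with a list median of 0.03.

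The remaining members were close to the threshold or of broad function. Cd164, a sialomucin, rose from between 6.60 and 7.50 on WT conventional arrays to between 8.80 and 9.19 on cKO arrays, beside 9.15 to 9.84 in pDC, and differed by 1.73 ± 0.21 (SE, limma adjusted p = 2.6e-05). Cd1d1, which presents lipid antigens to natural killer T cells, differed by 1.66 ± 0.31 (adjusted p = 0.00996). Its call was lost without WT pDC replicate 2 (1.52, adjusted p = 0.0605) and without WT pDC replicate 3 (1.59, adjusted p = 0.0535). Cd36, a scavenger receptor of cDC1, differed by 1.58 ± 0.33 (adjusted p = 0.0297). Its effect was 1.56 in cDC2 (adjusted p = 0.00141), where the 3 WT arrays were below the array median, and those of 0.65 in cDC1 and -0.47 in pDC were not called (adjusted p = 1 for both). It was not called when any of 11 of the 23 arrays was left out (adjusted p up to 0.143). The call likewise depended on 8 arrays for Gapt (1.66), 6 for Cldnd1 (1.54), 17 for Glipr2 (1.23), 10 for Evi5 (1.22) and 19 for Xdh (1.18, xanthine dehydrogenase), with limma adjusted p up to 0.161, 0.195, 0.195, 0.174 and 0.284.

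In all, 25 of the 40 genes kept their call when each array was left out in turn and 15 lost it at least once. Leaving out WT pDC replicate 3 had the largest cost, with 29 of 40 kept. Within sets A, B and C, which are parts of the arrays that chose these genes, the median size was 2.13, 1.99 and 2.07.

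**Figure D3:**
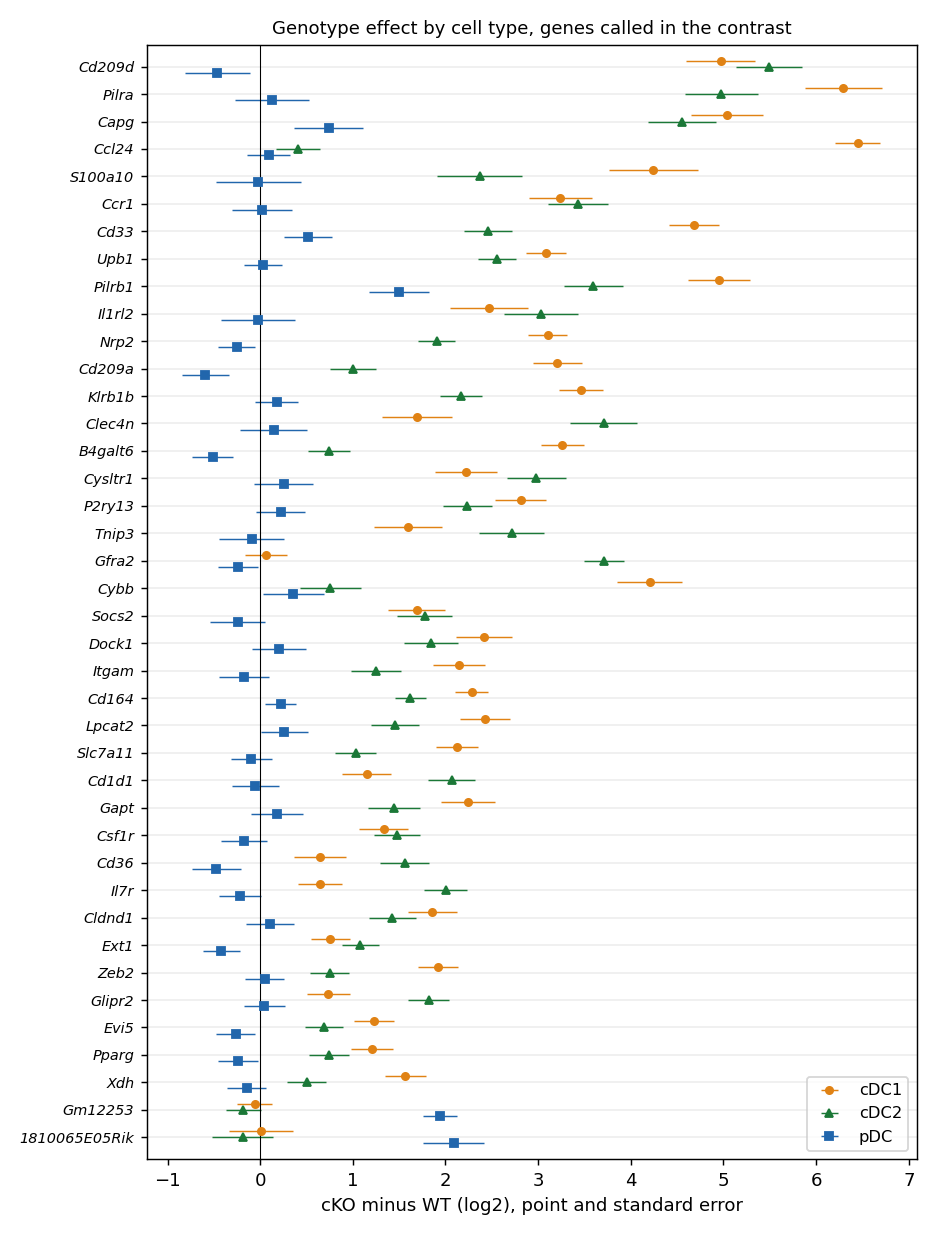
For each of the 40 called genes, the points give the cKO minus WT difference (log2) in cDC1 (circles), cDC2 (triangles) and pDC (squares) with its standard error. The squares of the 38 upper genes lie between -0.59 and 1.50, and those of the lowest pair, Gm12253 and 1810065E05Rik, at 1.94 and 2.09.

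The 2 genes that rose more in pDC are neighbours on chromosome 11 with 0 genes between them. Gm12253 read 7.37, 7.11 and 7.67 in WT pDC and 9.07, 9.43, 9.11, 9.48 and 9.53 in cKO pDC. On the 15 conventional arrays it lay between 3.61 and 4.28 in both genotypes, below the array median on each. Its conventional effect is thus a difference between dim signals. The pDC genotypes did not overlap. The pDC rise was 1.94, or 3.84-fold (limma adjusted p = 5e-06), and the contrast was -2.06 ± 0.23 (SE, adjusted p = 9.2e-06). Within sets A, B and C the value was -1.75, -2.20 and -2.08.

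1810065E05Rik read 5.62, 5.25 and 6.16 in WT pDC and 7.06, 7.85, 8.34, 6.75 and 8.83 in cKO pDC. On the conventional arrays it lay between 3.21 and 3.94, below the array median on each, so its conventional effect is also a difference between dim signals. Every cKO pDC array was above every WT pDC array, with a wide spread among them. The pDC rise was 4.25-fold (limma adjusted p = 0.0123) and the contrast -2.18 ± 0.41 (SE, adjusted p = 0.00935). Without WT pDC replicate 2 the contrast was -1.96 and not called (adjusted p = 0.0605). The windows before the starts of this pair, chr11:58432309-58432558 and chr11:58420861-58421110 (GRCm38.p6, plus strand, RefSeq), are shown because the genes adjoin and moved together. Neither held 1 of the 3 motifs, and at the best shift they were identical at 43 of 131 bases (32.8%).
Gm12253: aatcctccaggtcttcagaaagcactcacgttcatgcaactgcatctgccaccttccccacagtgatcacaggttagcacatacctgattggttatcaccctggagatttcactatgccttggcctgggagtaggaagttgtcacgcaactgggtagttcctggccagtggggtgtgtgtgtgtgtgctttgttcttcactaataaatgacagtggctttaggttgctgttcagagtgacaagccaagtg
1810065E05Rik: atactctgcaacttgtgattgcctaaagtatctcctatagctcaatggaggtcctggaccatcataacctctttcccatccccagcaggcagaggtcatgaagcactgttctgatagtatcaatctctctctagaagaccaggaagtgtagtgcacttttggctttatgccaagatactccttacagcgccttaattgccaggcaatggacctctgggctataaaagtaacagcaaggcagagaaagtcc

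The other two genes called in pDC were interferon-inducible and rose in conventional cells as well. Oasl2, an oligoadenylate synthetase-like gene, rose by 1.32 in pDC (limma adjusted p = 0.0266) and by 0.82 in the conventional mean (adjusted p = 0.00538). Slfn5, a Schlafen family gene, rose by 1.78 in pDC (adjusted p = 0.0307), and its conventional effect of 0.92 was called for the mean (adjusted p = 0.0334). Their contrasts were -0.50 ± 0.28 and -0.86 ± 0.39 (SE) and were not called (adjusted p = 1 for both), with 95% intervals from -1.07 to 0.08 and from -1.66 to -0.06.

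The contrast also equals the change in the gap between conventional dendritic cells and pDC, from WT to cKO. The 38 genes were chosen by this same value, so a rise of each gap from WT to cKO follows from the choice. In WT, 15 of the 38 genes were lower in conventional dendritic cells than in pDC, 14 were higher and 9 were not called apart. In cKO 7 were lower, 26 were higher and 5 were not called apart. Over all genes, 15.3% were called apart in WT (9.31% higher, 5.99% lower) and 24.5% in cKO (15.6% higher, 8.97% lower), where there are more arrays.

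For several genes a gap in favour of pDC shrank. Cd209d had a gap of -6.16 in WT (limma adjusted p = 8.2e-12) and of -0.47 in cKO (adjusted p = 0.248). Cd33 went from -3.17 to -0.11 (adjusted p = 0.765 in cKO), Cd209a from -2.81 to -0.12 (0.744), Upb1 from -3.15 to -0.36 (0.103) and Il1rl2 from -2.39 to 0.39 (0.433). An adjusted p that misses the threshold does not show equal levels. P2ry13, Gapt, Il7r, Zeb2 and Cybb stayed lower in conventional dendritic cells, with gaps of -4.52, -4.12, -3.54, -2.79 and -3.57 in WT and of -2.22, -2.46, -1.99, -1.51 and -1.45 in cKO.

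For other genes the order turned or a gap opened. Capg went from -3.23 to 0.82 (limma adjusted p = 0.0362 in cKO) and Pilra from -1.52 to 3.99. Cldnd1 also turned, from -0.73 (adjusted p = 0.0475) to 0.81 (adjusted p = 0.00318). Ccl24 had a gap of -0.08 in WT and of 3.26 in cKO, Nrp2 of 0.20 and 2.95, and Gfra2 of 0.21 and 2.34. Genes already higher in WT conventional dendritic cells moved further away, such as B4galt6 from 1.82 to 4.34, Klrb1b from 1.57 to 4.20 and Socs2 from 1.72 to 3.69.

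**Figure D4:**
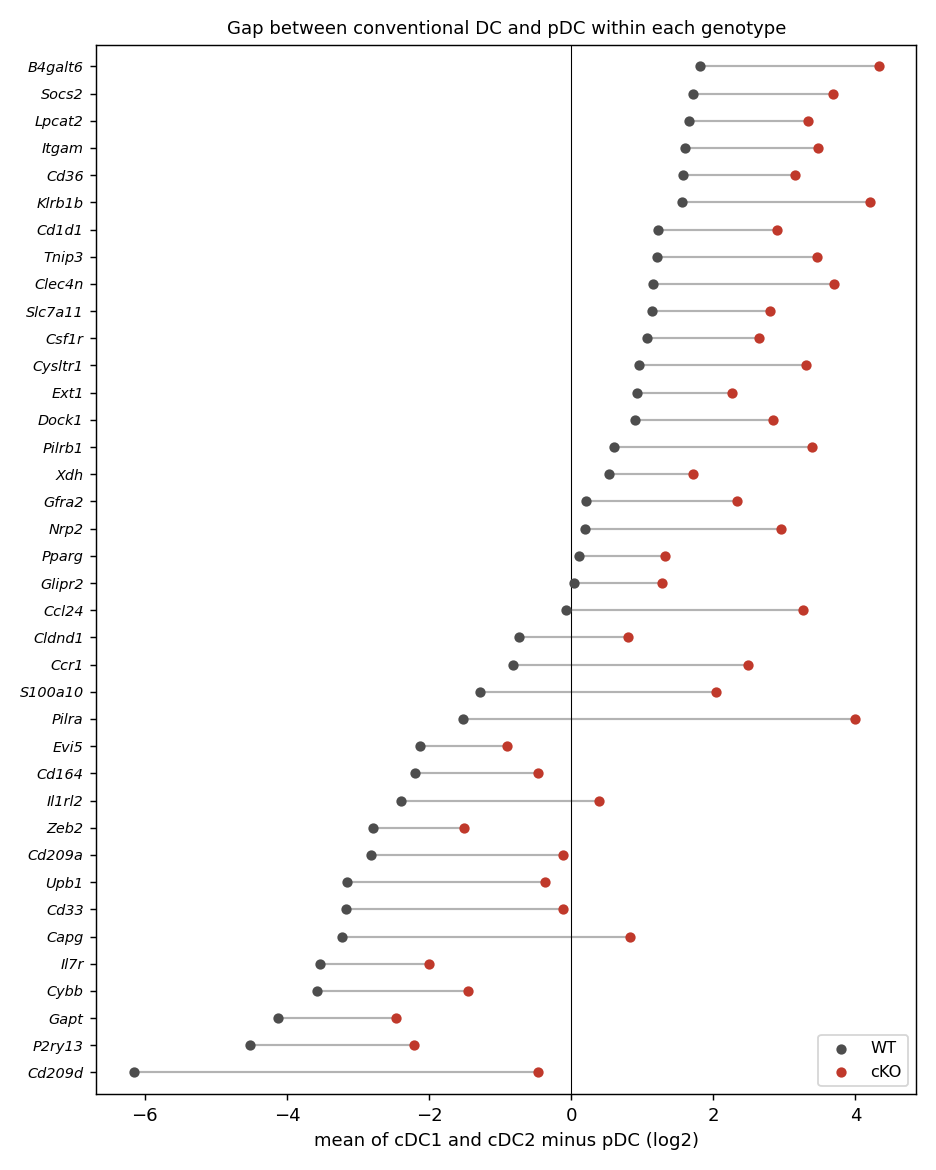
For the 38 genes called higher, the level in conventional dendritic cells (mean of cDC1 and cDC2) minus that in pDC is plotted on a log2 scale for WT (grey) and cKO (red), and the line joins them. Cd209d at the bottom moves from -6.16 to -0.47 and B4galt6 at the top from 1.82 to 4.34.

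The contrast averages 2 cell types that did not always agree. Taken apart, cDC1 minus pDC called 39 genes higher and 1 lower (0.329% in all, 0.00823% lower), and cDC2 minus pDC called 44 higher and 15 lower (0.485% in all, 0.123% lower). After quantile normalization the cDC2 split was 47 higher and 31 lower. Of the 38 genes, 13 were called in both parts, 14 in the cDC1 part and not the cDC2 part, and 11 the other way round. These parts share the pDC arrays. A direct test of cDC1 against cDC2, which leaves out pDC, called 34 genes (0.28%), of which 6 were members. Without WT cDC2 replicate 2 the counts were 39 for cDC2 minus pDC and 22 for cDC1 against cDC2, and the latter was also 22 without WT cDC1 replicate 2. Without the 3 arrays high in Xist the cDC1 and cDC2 parts each called 24 genes, and cDC1 against cDC2 called 17.

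Those 6 genes moved by unequal amounts in the conventional types. The cDC1 effect was larger for Ccl24 by 6.04 ± 0.34 (SE, limma adjusted p = 1.2e-10) and for Cybb by 3.45 ± 0.48 (adjusted p = 4.8e-04). It was larger by 2.52 ± 0.33 for B4galt6 (adjusted p = 1.8e-04), by 2.22 ± 0.37 for Cd33 (adjusted p = 0.0034) and by 2.20 ± 0.37 for Cd209a (adjusted p = 0.00334). For Gfra2 the difference was -3.64 ± 0.31 (adjusted p = 3.7e-07), a larger effect in cDC2. For the remaining members this test did not pass, which does not show that cDC1 and cDC2 moved alike. Pilra, for example, had a cDC1 minus cDC2 difference of 1.31 ± 0.57 (adjusted p = 1) and Cd209d of -0.52 ± 0.51 (adjusted p = 1).

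The counts of the other pathway and cell type lists are to be read against the 0.313% of all genes tested that were called higher. Besides those above, 4 of 26 cDC2 identity genes were called higher (Cd209a, Itgam, Csf1r and Zeb2, with a list median of 0.25). Of these 26, 16 were above 0, and 8 were higher and 3 lower at an unadjusted p under 0.05. The conventional mean effect was called higher for 7 of them and lower for 3, beside 1.55% and 0.247% of all genes. In the contrast 1 of 24 cDC1 identity genes (Cd36, list median 0.33) and 2 of 21 pDC identity genes (Cybb and Zeb2, -0.13) were called higher. Among genes that BCL6 is known to repress in B and T cells, 2 of 33 were called (Socs2 and Il7r; list median 0.23). C-type lectins had the most members with unadjusted p under 0.05, at 11 higher and 1 lower of 26, and 3 called (Cd209d, Cd209a and Clec4n; list median 0.63). In that list Clec4a4, a cDC2 lectin, had a difference of -1.19 ± 0.34 and was not called (limma adjusted p = 0.32). None of the 37 lists held a gene called lower.

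Interferon-stimulated genes had median effects above 0 in both kinds of cell. In the contrast 0 of 31 were called by limma, with 2 higher and 1 lower at an unadjusted p under 0.05. Their median effect was 0.76 in conventional dendritic cells, where 6 were called higher (1.55% of all genes were), and 0.84 in pDC, where 1 was called (0.0329% of all genes were), and the median difference was -0.16. The interferon-induced GTPases of the GBP and IRG families had medians of 1.25 and 0.64, with 6 of 8 called higher in conventional dendritic cells, beside the same 1.55% of all genes, 0 called in pDC and 0 in the contrast, and 3 with an unadjusted p under 0.05. Cytokines likewise had 0 of 20 called and 3 with an unadjusted p under 0.05. Among them Il6 had a difference of 3.17 ± 0.75 (limma adjusted p = 0.0869). MHC class I (15 genes, median -0.07) and class II presentation (12 genes, 0.00), BCL2 family (12 genes, 0.01), oxidative phosphorylation (24 genes, 0.28) and secretory pathway genes (23 genes, -0.15) held 0 called members and 0 with an unadjusted p under 0.05.

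Markers of other cell types were mostly not called. NK cell markers had a list median of 0.96 over 7 genes with 0 called, and T cell markers of 0.60 over 10 genes with Il7r called. Of the NK cell markers 5 of 7 were above 0, and of the T cell markers 8 of 10. At an unadjusted p under 0.05, 2 NK and 4 T cell markers were higher and 0 of either list were lower. Monocyte and neutrophil markers had a list median of 0.66 over 14 genes, 11 of them above 0, with Itgam called. In that list 4 were higher and 0 lower at an unadjusted p under 0.05. The summed NK marker level was 7.06 to 9.51 in WT pDC and 6.89 to 7.77 in cKO pDC, while in cDC2 it was 6.81 to 7.76 in WT and 7.37 to 8.30 in cKO. Of the 5 markers in that sum the contrast was 1.68 for Ncr1, 0.96 for Gzma, 0.68 for Klrb1c, 0.26 for Eomes and -0.07 for Prf1. On every cKO cDC2 array 2 of the 5 were above the array median and 2 (Klrb1c and Eomes) below it, and in WT pDC 0 were below it on every array. Red pulp macrophage markers (11 genes, median 0.50), B cell markers (10 genes, -0.14), plasma cell markers (6 genes, -0.05) and erythroid and platelet markers (5 genes, 0.25) held 0 called members, with 5, 0, 1 and 0 at an unadjusted p under 0.05. The part of such cells in the contrast was not tested.

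**Figure D5:**
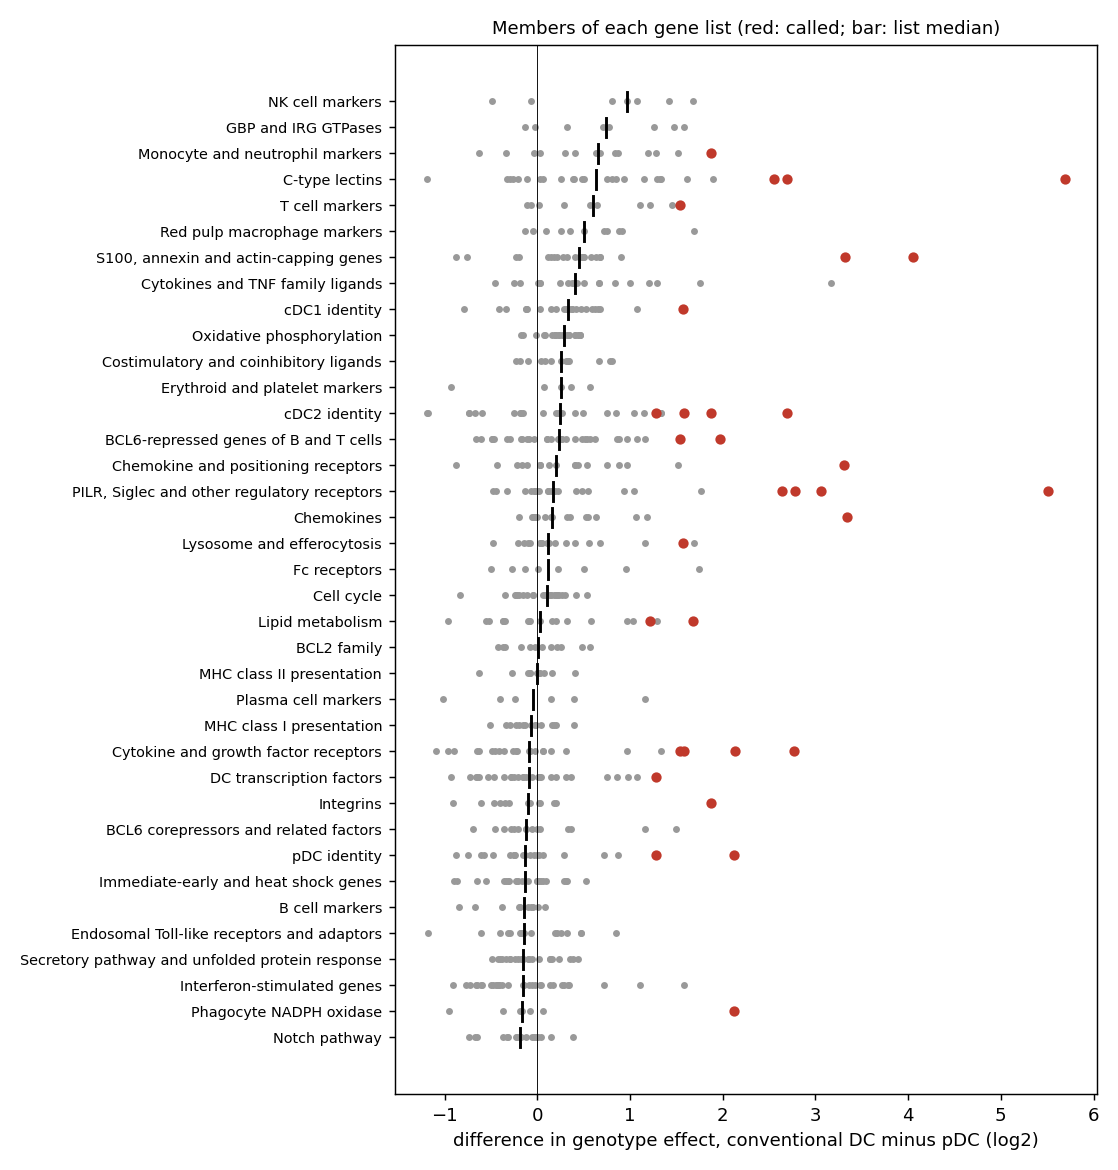
Each row is 1 of 37 gene lists and each point a member, placed by the difference in genotype effect between conventional dendritic cells and pDC (log2). Red points were called, bars mark list medians, and all red points lie to the right of 0, from 1.21 (Pparg) to 5.69 (Cd209d).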

How the data were processed

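The deposited values are linear gene-level intensities, 1 for each probe set and array, made by the authors with RMA in Affymetrix Expression Console per the submitters' processing notes, with no versions given in the sources used here. RMA output is usually log2, so log2 of the deposited intensity was taken first. Of 28853 probe sets, 21789 named 1 gene, and the brightest probe set above the array median on at least 3 arrays stood for its gene, which left 12157 genes. Tests used limma 3.58.1 (lmFit, eBayes) in R 4.3.3 on 6 group means with 17 residual degrees of freedom, two-sided, with Benjamini-Hochberg adjustment over all genes tested. The script was tested on simulated data. Figures used matplotlib 3.10.9. Precision is limited by how many arrays each group has.

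The contrast, the 37 gene lists, the markers and sets A, B and C were chosen with earlier results of these data known. The sets were found from array medians. Named genes were Bcl6, the 12 largest called differences in each direction, up to 2 called members of each list, genes called in pDC alone and up to 5 whose cDC1 and cDC2 effects also differed, 25 genes in all. The other 16 called genes, Oasl2, Slfn5 and the uncalled genes of the lists were named after their values were seen. Gene names came from the platform table, with 21698 probe sets matched to RefSeq (GRCm38.p6), which also gave the promoter windows.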

Additional observations from a re-analysis of the deposited data

Results flagged for a closer look

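An array stood apart from the rest of its group in 4 of 129 groups of 4 or 5 arrays examined over 43 genes. Chance gives about 1 in 20 groups. Pilra was at 7.90 on cKO pDC replicate 5 against 5.72 to 6.33 on the other arrays of that group. Pilrb1 was at 9.52 on cKO cDC1 replicate 2 against 9.83 to 9.88. Il1rl2 was at 5.65 on cKO pDC replicate 3 against 6.52 to 6.73. Il7r was at 9.32 on cKO cDC2 replicate 5 against 8.79 to 8.94.

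The genotype effect differed between conventional dendritic cells and pDC for 40 genes by limma's test of the difference. By the same kind of test it differed between cDC1 and cDC2 for Ccl24 (cDC1 minus cDC2, 6.04), Cybb (3.45), B4galt6 (2.52), Cd33 (2.22), Cd209a (2.20) and Gfra2 (-3.64).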

How the results depend on the processing

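The sign of all 40 called differences was the same under each alternative run, and 19 kept their call under all of the 12 alternatives other than single left-out arrays and the contrast's own cDC1 and cDC2 parts. The count of 40 became 76 with a replicate block (72 higher and 4 lower, all 40 kept) and 82 with a random replicate block (correlation 0.341). It became 132 when the set was a term (106 higher and 26 lower), and it ran from 33 to 45 over left-out arrays. Same-numbered arrays of different groups deviated together less evenly than arrays of 1 set (correlations from -0.297 to 0.704, median 0.463, against -0.051 to 0.704, median 0.524), so the numbers were not taken to pair the arrays. The median was -0.195 for arrays of different numbers and -0.265 for arrays of different sets. Arrays of 1 set thus mostly deviated together, and the main fit, on group means alone, treats the arrays as independent. An exception was cKO pDC replicate 4, placed in set C by its median. Its correlations with arrays of other groups ran from 0.013 to 0.359 in set A and from -0.051 to 0.244 in set C. The pDC values within set C and the fits that included the set rest on that placement. With the set as a term the counts were 548 for the conventional mean, 26 for pDC, 212 for cDC1, 559 for cDC2, 95 for cDC1 minus pDC, 218 for cDC2 minus pDC and 148 for cDC1 minus cDC2. With array weights, whose fit stopped before its tolerance, they were 512 for the conventional mean, 1 for pDC, 271 for cDC1 and 72 for cDC1 minus cDC2. The replicate block gave 78 for cDC1 minus pDC and 69 for cDC1 minus cDC2. The random replicate block gave 7 for pDC, 64 for cDC1 minus pDC, 103 for cDC2 minus pDC and 69 for cDC1 minus cDC2. Quantile normalization gave 7 for pDC. Without the 3 arrays high in Xist the counts were 141 for the conventional mean, 106 for cDC2, 24 for each of cDC1 minus pDC and cDC2 minus pDC, and 17 for cDC1 minus cDC2. Over left-out arrays the conventional mean ran from 140 (without WT cDC1 replicate 2) to 230, pDC from 1 (without WT pDC replicate 2) to 7 (without WT pDC replicate 3 or cKO pDC replicate 3), cDC1 from 66 (without WT cDC1 replicate 2) to 108, and cDC2 from 107 (without WT cDC2 replicate 1; 123 without replicate 2) to 209. cDC1 minus pDC ran from 30 to 43, cDC2 minus pDC from 39 (without WT cDC2 replicate 2) to 66, and cDC1 minus cDC2 from 22 (without WT cDC1 replicate 2 or WT cDC2 replicate 2) to 37. Leaving out WT pDC replicate 1 or cKO pDC replicate 2, 4 or 5 gave 2 genes in pDC. Fits on fewer arrays rest on less data, and with single arrays left out the counts fell in some fits and rose in others. The part of the array number in these changes was not tested, and neither was the cause of the other changes. Genes below the array median in a group have folds of uncertain size.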
